A study of Mus musculus with 10 samples.

Results

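A set of 33 macrophage and monocyte genes was followed in overloaded mouse plantaris, a muscle of the calf. The members were chosen by gene symbol in the array annotation, from probe sets with exactly 1 symbol, and all 33 were found among the 22180 genes measured, each with 1 probe set. In male C57BL/6 mice the plantaris was overloaded by synergist ablation, the removal of muscles that share its work, and some mice also received a drug against platelet-derived growth factor (PDGF), which the labels call only an inhibitor. The groups were 3 d of overload with the inhibitor, 3 d of overload alone, 10 d of overload with the inhibitor, 10 d of overload alone, and no overload without inhibitor. Each group had 2 arrays, and each array held RNA pooled in equal amounts from 4 whole muscles. Neither the age of the mice nor any vehicle treatment is given in the sources at hand.

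Macrophages are phagocytes that enter injured or loaded muscle from blood monocytes and also live in the connective tissue between fibres. The monocyte-derived cells clear debris and signal to muscle stem cells and fibroblasts, while the resident cells are known for scavenger receptors. The members were ordered by role: lineage and identity (8 genes), Fc receptors and ITAM adaptors (4), lysosomal and antimicrobial (5), inflammatory monocyte (4), phagocytic and lipid-handling (7), and resident-like (5). The question was whether the inflammatory monocyte, phagocytic and resident-like members moved together over overload and with the inhibitor. All arrays were made from whole muscle, so more macrophages and more RNA per macrophage cannot be told apart.

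One member, Spi1, encodes PU.1, a transcription factor of myeloid cells known to bind a purine-rich word, GAGGAA, which reads as TTCCTC on the other strand. Sequence of the 250 bases before an annotated start was found for 25 of the 33 members in RefSeq (build GRCm38.p6), and a gene with several starts counted if any window held the word. The word stood in 14 of these 25 members (56.0%) and in 6986 of 27025 genes with a sequence (25.9%). TTNNGCAA, a word of C/EBP factors, stood in 2 members (8.0%, against 10.8% of all genes). TGANTCA, a word of AP-1 factors, stood in 5 (20.0%, against 7.8%), and TCANGTG, a word of the MITF family, in 3 of the 25, against 13.8% of all genes. Both strands were searched for each word, and a match is a description of letters, not a binding site. Windows of 5 members are printed 5′ to 3′ on the strand of the gene, with this word in capitals wherever it stands on either strand. They are shown because the first 4 belong to genes called at both times and the last to Chil3, which had none of the 4 words. Fcer1g, Gpnmb and Mpeg1, also called at both times, had none of the 4 words either, and Ly6c2, called at neither time, held GAGGAA. The choice of windows therefore does not show whether the word goes with a call.
Itgam (chr7:128062390-128062639, plus strand): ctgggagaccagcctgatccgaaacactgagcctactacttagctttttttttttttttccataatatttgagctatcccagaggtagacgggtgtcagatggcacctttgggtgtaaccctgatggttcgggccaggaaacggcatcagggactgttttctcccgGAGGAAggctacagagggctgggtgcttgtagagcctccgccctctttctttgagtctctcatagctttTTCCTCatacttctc
Fcgr1 (chr3:96293970-96294219, minus strand): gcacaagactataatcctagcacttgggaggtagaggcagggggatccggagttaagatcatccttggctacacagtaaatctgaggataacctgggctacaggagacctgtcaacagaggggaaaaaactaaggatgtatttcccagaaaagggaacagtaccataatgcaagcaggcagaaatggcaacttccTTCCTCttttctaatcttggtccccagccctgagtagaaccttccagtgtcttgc
Cd68 (chr11:69666171-69666420, minus strand): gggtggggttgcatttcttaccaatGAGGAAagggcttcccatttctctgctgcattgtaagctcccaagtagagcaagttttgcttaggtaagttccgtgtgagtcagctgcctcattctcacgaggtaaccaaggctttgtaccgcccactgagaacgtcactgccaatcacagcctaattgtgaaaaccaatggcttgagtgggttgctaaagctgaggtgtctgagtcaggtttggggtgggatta
Mrc1 (chr2:14229164-14229413, plus strand): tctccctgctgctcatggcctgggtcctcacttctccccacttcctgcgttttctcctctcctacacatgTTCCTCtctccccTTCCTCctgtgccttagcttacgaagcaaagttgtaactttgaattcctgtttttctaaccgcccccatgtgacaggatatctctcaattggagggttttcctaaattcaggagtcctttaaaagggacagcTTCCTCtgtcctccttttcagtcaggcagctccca
Chil3 (chr3:106167565-106167814, minus strand): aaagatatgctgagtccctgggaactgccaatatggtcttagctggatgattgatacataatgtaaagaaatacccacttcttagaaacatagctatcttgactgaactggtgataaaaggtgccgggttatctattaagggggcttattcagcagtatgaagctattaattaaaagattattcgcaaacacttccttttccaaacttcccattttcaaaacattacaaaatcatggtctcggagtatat
The word began 84 and 15 bases before the start of Itgam, 55 before that of Fcgr1, 225 before that of Cd68, and 180, 167 and 35 before that of Mrc1. The Cd68 window also held 1 TTNNGCAA and 2 TGANTCA words, and no word overlapped another in these windows.

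Values are the authors' log2 expression values, and a level is compared only between pools of 1 gene. Taken over every probe set, array medians ran from 2.40 to 2.45 log2 units. Over the 22180 genes the medians were not level: setting them equal took 0.19 log2 units off the 3 d changes against no overload and 0.17 off the 10 d changes, and 29 and 20 members were then called higher. Pools of a group correlated across probe sets at r = 0.989 to 0.992, which describes the arrays and is no test. The files hold no detection calls, so a reading below the array medians is not shown to be above background. Without overload this held in at least 1 pool for 8 members (Itgax, Ms4a7, Chil3, Arg1, Msr1, Clec7a, Trem2 and Lgals3), whose overload changes are therefore given as log2 differences of the readings, with no fold. All 6 muscle fibre genes of the tissue check read 9.97 log2 units or more in every pool. Changes are log2 differences ± the standard error of a limma fit over all 10 arrays, and a gene was called where its p, adjusted over all 22180 genes by Benjamini-Hochberg, was under 0.05. Whether pools that share a group come from different animals is unstated in the labels, so the p-values measure the spread between these pools.

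After 3 d of overload, 30 of the 33 members rose and none fell, against 9.31% of all genes called higher and 8.18% called lower. Their median log2 change was 2.52, against -0.04 over all genes. The changes called ran from 0.65 for Mertk to 4.99 for Ms4a7, which omission of 1 pool moved between 4.32 and 5.65. After 10 d, 20 of the 33 were still higher than without overload, against 3.9% of all genes called higher, and the median change was 1.45, against -0.04. None was called lower, against 1.23% of all genes, and 1 (Ly6c2) had an unadjusted p under 0.05 in that direction. In either direction 4497 of all 22180 genes had such a p at 10 d. Both comparisons use the same 2 pools without overload, and the first of them was the lowest of all 10 pools for 22 members and the second for 6. When only the 4 arrays of a comparison entered the fit, which leaves fewer arrays to estimate the spread, the 10 d count was 1. Over all groups it was 10 without 10 d overload pool 2 and 9 without pool 1 of no overload, and 8 of the 20 genes (Itgam, Ms4a7, Fcgr1, Fcer1g, Cd68, Lyz2, Apoe and Mrc1) passed in all 10 fits that omitted 1 pool.

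**Figure D1:**
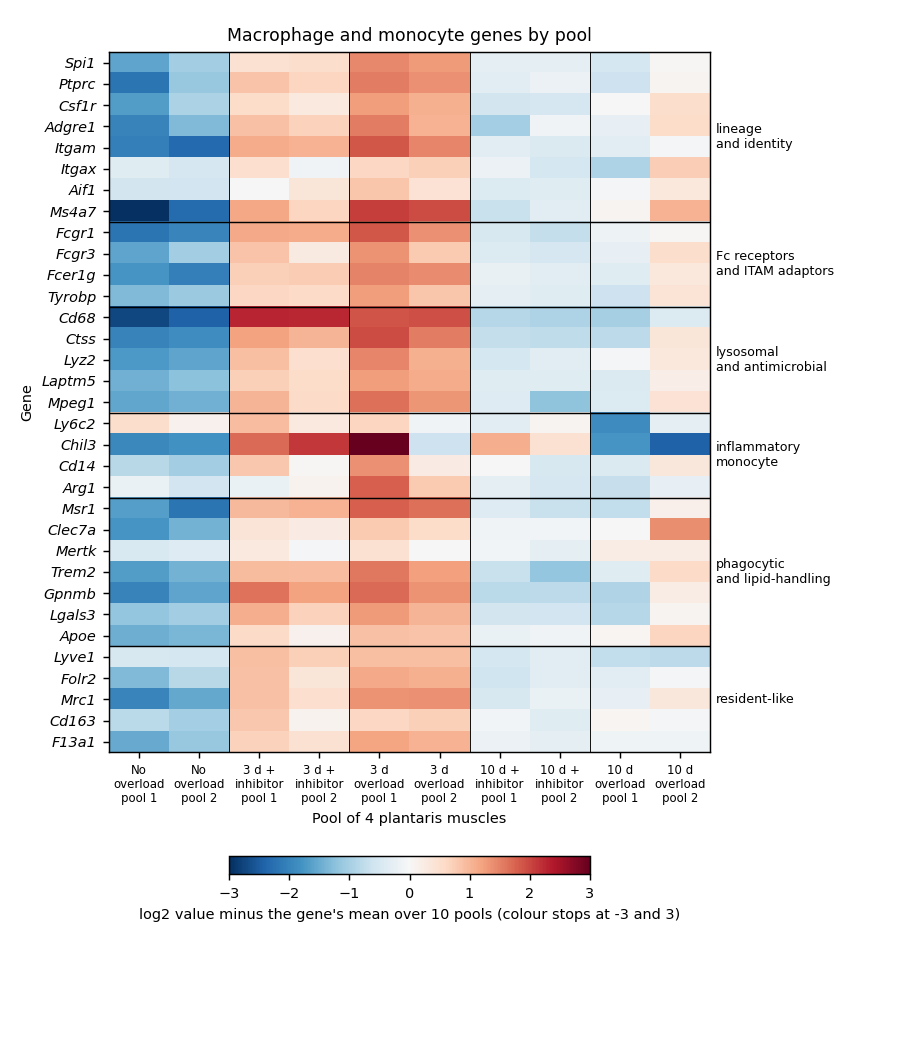
Values of the 33 members in each of the 10 pools (columns), as the log2 value minus the gene's mean over the 10 pools, with genes (rows) in order of role. The 3 d columns are red for nearly all rows and the columns without overload are blue, and the row of Chil3 differs between the 3 d overload pools.

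Of the 8 lineage and identity genes, 7 rose at 3 d and 5 at 10 d, with median log2 changes of 2.81 and 1.49. Spi1 (PU.1) read 2.58 and 3.10 log2 units without overload, 5.59 and 5.43 at 3 d and 3.62 and 4.18 at 10 d. It was 6.35-fold higher at 3 d (log2 2.67 ± 0.22, adjusted p = 0.000218) and 2.08-fold higher at 10 d (log2 1.06 ± 0.22, adjusted p = 0.0329). Ptprc, the CD45 phosphatase on nucleated blood cells, read 3.67 and 4.73 log2 units without overload, 7.40 and 7.23 at 3 d and 5.24 and 5.95 at 10 d. Its rise at 3 d was 8.68-fold, and its 10 d change of 1.40 ± 0.34 missed the threshold (adjusted p = 0.053). Csf1r, the receptor for the macrophage growth factors Csf1 and Il34, read 4.97 and 5.69 log2 units without overload, 7.89 and 7.70 at 3 d and 6.64 and 7.17 at 10 d. It rose 5.53-fold at 3 d and 2.98-fold at 10 d. The 10 d call of Csf1r was lost without 10 d overload pool 2 or pool 1 of no overload, and that of Spi1 passed in 2 of the 10 fits that omitted 1 pool. Both 3 d pools lay above both pools without overload for all 8 genes of this role, as they did for 25.1% of all genes, while 30.7% of all genes lay apart in the other direction.

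Adgre1, an adhesion receptor that marks mouse macrophages, read 3.43 and 4.12 log2 units without overload, 6.99 and 6.49 at 3 d and 5.21 and 6.00 at 10 d. It rose 7.78-fold at 3 d and 3.55-fold at 10 d, where the call held in 5 of the 10 fits that omitted 1 pool. Itgam, the integrin alpha chain CD11b that monocytes share with neutrophils, read 3.55 and 3.27 log2 units without overload, 7.45 and 7.06 at 3 d and 5.29 and 5.57 at 10 d. It rose 14.4-fold at 3 d (log2 3.84 ± 0.18, adjusted p = 2.83e-05) and 4.04-fold at 10 d (log2 2.02 ± 0.18, adjusted p = 0.00169), with no overlap among the 3 groups. Ms4a7, a membrane protein enriched in macrophages, read 1.72 and 3.04 log2 units without overload, 7.43 and 7.30 at 3 d and 5.43 and 6.39 at 10 d. Its changes were 4.99 ± 0.44 at 3 d (adjusted p = 0.000268) and 3.53 ± 0.44 at 10 d (adjusted p = 0.00507). The pools without overload differed by 1.33 log2 units for this gene. Aif1, an actin-binding protein of macrophages, read 3.27 and 3.24 log2 units without overload, 4.65 and 4.26 at 3 d and 3.78 and 4.13 at 10 d and rose 2.29-fold at 3 d. Itgax, the CD11c chain shared with dendritic cells, was dim, at 1.36 to 3.03 log2 units over all 10 pools, and its 3 d change of 1.10 ± 0.45 did not pass (adjusted p = 0.142).

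All 4 Fc receptor and ITAM adaptor genes rose at 3 d and 3 of them at 10 d, with median log2 changes of 2.88 and 1.67. Fcgr1, the high-affinity receptor for IgG, read 2.67 and 2.88 log2 units without overload, 6.72 and 6.23 at 3 d and 4.72 and 4.91 at 10 d. It rose at 3 d (log2 3.70 ± 0.19, adjusted p = 4.08e-05) and 4.1-fold at 10 d. Fcer1g, the gamma chain through which Fc receptors signal, read 4.94 and 4.66 log2 units without overload, 8.21 and 8.13 at 3 d and 6.34 and 7.03 at 10 d, and its rises were 10.3-fold and 3.69-fold at these times. Tyrobp (DAP12), the adaptor of Trem2, read 3.64 and 3.86 log2 units without overload, 6.22 and 5.78 at 3 d and 4.34 and 5.37 at 10 d. It rose 4.78-fold at 3 d, and its 10 d change of 1.11 ± 0.30 had adjusted p = 0.0735. Fcgr3, a low-affinity IgG receptor, read 3.62 and 4.16 log2 units without overload, 6.56 and 6.00 at 3 d and 4.97 and 5.74 at 10 d. It rose 5.23-fold at 3 d and 2.76-fold at 10 d, where the call held in 3 of the 10 fits that omitted 1 pool. Its value is uncertain because close relatives can share probe signal. Of those, looked at after the values were seen, Fcgr2b changed by 3.24 at 3 d and 2.12 at 10 d and Fcgr4 by 1.43 and 0.58, with no test given.

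All 5 lysosomal and antimicrobial genes rose at both times, with median log2 changes of 2.99 at 3 d and 1.73 at 10 d. Cd68, a glycoprotein of the lysosomal membrane, read 4.97 and 5.28 log2 units without overload, 9.60 and 9.64 at 3 d and 6.71 and 7.29 at 10 d. It rose 22.6-fold at 3 d (log2 4.50 ± 0.20, adjusted p = 2.83e-05) and 3.67-fold at 10 d (log2 1.87 ± 0.20, adjusted p = 0.003), and no 2 of the 3 groups overlapped. Ctss, cathepsin S, read 5.57 and 5.71 log2 units without overload, 9.54 and 9.11 at 3 d and 6.79 and 7.94 at 10 d, and Lyz2, lysozyme of macrophages and neutrophils, read 6.89 and 7.03 log2 units without overload, 10.09 and 9.68 at 3 d and 8.55 and 8.93 at 10 d. Ctss rose 12.9-fold and Lyz2 7.57-fold at 3 d, and at 10 d they were 3.31-fold and 3.43-fold higher. Laptm5, a lysosomal transmembrane protein of blood cells, read 2.58 and 2.80 log2 units without overload, 5.29 and 5.13 at 3 d and 3.59 and 4.22 at 10 d. Mpeg1, the pore-forming protein perforin-2, read 3.71 and 3.82 log2 units without overload, 6.91 and 6.60 at 3 d and 4.85 and 5.71 at 10 d. In each of these 5 genes every 3 d pool lay above every 10 d pool, and every 10 d pool above every pool without overload. Over all genes, 24.2% had both 10 d pools below both 3 d pools, and 22.1% had both 10 d pools above both pools without overload. Without 10 d overload pool 2 or pool 1 of no overload the 10 d calls of Ctss (log2 1.15 to 2.31 over all omissions), Laptm5 and Mpeg1 were lost.

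The 4 inflammatory monocyte genes did not share this pattern with each other: 2 rose at 3 d and none passed at 10 d, where the median log2 change was -0.16. At 10 d 1 of the 4 had an unadjusted p under 0.05, as did 4497 of all 22180 genes in either direction. The role name is a label for these 4 genes only. Ccr2, a receptor of inflammatory monocytes listed elsewhere, was called higher at 10 d (log2 1.61 ± 0.22, adjusted p = 0.00751). Cd14, the co-receptor for bacterial lipopolysaccharide, read 2.89 and 2.69 log2 units without overload, 5.10 and 3.98 at 3 d and 3.28 and 4.06 at 10 d. Its 3 d rise of 3.36-fold (log2 1.75 ± 0.42, adjusted p = 0.0202) was lost when 3 d overload pool 1 or either pool without overload was omitted (log2 1.19 to 2.31, highest adjusted p = 0.126). Arg1, arginase 1, read 2.45 and 2.07 log2 units without overload, 4.44 and 3.44 at 3 d and 1.95 and 2.40 at 10 d. It was higher at 3 d (log2 1.68 ± 0.32, adjusted p = 0.00743), with a change of 1.18 without 3 d overload pool 1 and of 2.18 without its partner, and at 10 d its pools overlapped those without overload. Ly6c2, the surface antigen that marks inflammatory monocytes in mouse blood, read 5.07 and 4.67 log2 units without overload, 5.18 and 4.44 at 3 d and 2.66 and 4.27 at 10 d. Its 3 d change was -0.06 ± 0.49 (95% interval -1.18 to 1.06) and its 10 d change -1.40 ± 0.49 (adjusted p = 0.151). Its near-identical relative Ly6c1, which endothelial cells carry, changed by -0.23 and 0.23 at these times, so the Ly6c2 signal is uncertain.

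Chil3 (Ym1), a secreted chitinase-like protein of myeloid cells, read 0.81 and 0.93 log2 units without overload, 5.95 and 2.12 at 3 d and 0.98 and 0.32 at 10 d. The 3 d overload pools differed by 3.83 log2 units, and the 3 d change of 3.17 ± 0.96 did not pass (adjusted p = 0.0554). It was 1.25 without 3 d overload pool 1 and 5.08 without pool 2, and only the omission of pool 2 gave a call. Its relative Chil4 changed by 0.15 at 3 d. Neutrophils and their precursors also make Chil3, and the sums of their markers were likewise higher in 3 d overload pool 1 than in pool 2. The summed log2 level of 10 neutrophil markers was 46.8 in 3 d overload pool 1 and 26.2 in pool 2, against 21.8 to 22.2 without overload, and that of 7 granulocyte precursor markers was 33.7 and 9.19 in these pools, against 7.97 to 11.7 without overload. Elane and Mpo, enzymes of granulocyte precursors, read 5.21 and 5.02 log2 units in pool 1 and at most 1.75 in each of the other 9 pools. Values on this log2 scale have no zero, and Ly6g, a surface marker of neutrophils, read 2.54 in pool 1 and 1.58 in pool 2. The part of these cells in the Chil3 value was not tested.

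All 7 phagocytic and lipid-handling genes rose at 3 d and 5 at 10 d, with median log2 changes of 2.29 and 1.63. Msr1, a scavenger receptor, read 2.92 and 2.37 log2 units without overload, 6.36 and 6.21 at 3 d and 3.83 and 4.71 at 10 d, and rose by 3.64 ± 0.29 at 3 d and 1.63 ± 0.29 at 10 d. Trem2, a lipid-sensing receptor that signals through Tyrobp, read 2.37 and 2.61 log2 units without overload, 5.63 and 5.28 at 3 d and 3.69 and 4.62 at 10 d. It rose at 3 d (log2 2.96 ± 0.30, adjusted p = 0.000479) and at 10 d (log2 1.66 ± 0.30, adjusted p = 0.0184). Gpnmb, a glycoprotein of lysosome-rich macrophages, read 4.21 and 4.64 log2 units without overload, 7.91 and 7.56 at 3 d and 5.32 and 6.43 at 10 d, with rises of 9.94-fold and 2.74-fold. The 10 d calls of Msr1, Trem2 and Gpnmb were lost without 10 d overload pool 2 or pool 2 of no overload, and that of Gpnmb held in 1 of the 10 fits that omitted 1 pool (log2 0.90 to 2.01). Lgals3, the lectin galectin-3, was dim and read 1.31 and 1.43 log2 units without overload, 3.74 and 3.49 at 3 d and 1.62 and 2.55 at 10 d. It rose at 3 d (log2 2.25 ± 0.28, adjusted p = 0.00112), and its 10 d change was 0.71 ± 0.28 (adjusted p = 0.193).

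The other 3 genes of this role were not called lower at 10 d than at 3 d. Clec7a (dectin-1), a receptor for fungal glucans, read 1.78 and 2.11 log2 units without overload, 4.32 and 4.09 at 3 d and 3.55 and 4.93 at 10 d. It rose at 3 d (log2 2.27 ± 0.37, adjusted p = 0.0037) and at 10 d (log2 2.30 ± 0.37, adjusted p = 0.0126), and it was the 1 member whose highest group mean was at 10 d. The 10 d call rests on a spread pair: the change was 1.61 without 10 d overload pool 2 and 2.98 without pool 1, and the call was lost without pool 1 of no overload (adjusted p = 0.0767). Apoe, which carries lipids out of macrophages, read 3.91 and 4.01 log2 units without overload, 6.26 and 6.23 at 3 d and 5.43 and 6.01 at 10 d and rose 4.88-fold and 3.38-fold. Mertk, a receptor for dying cells, read 5.25 and 5.32 log2 units without overload, 6.15 and 5.72 at 3 d and 5.93 and 5.94 at 10 d. Its 3 d rise of 0.65 ± 0.18 (adjusted p = 0.0409) passed in 3 of the 10 fits that omitted 1 pool, and its 10 d change was 0.64 ± 0.18 (adjusted p = 0.0828).

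All 5 resident-like genes rose at 3 d and 2 at 10 d, with median log2 changes of 2.18 and 0.93. Mrc1, the mannose receptor CD206, read 5.91 and 6.37 log2 units without overload, 9.25 and 9.27 at 3 d and 7.65 and 8.25 at 10 d. It rose 8.72-fold at 3 d (log2 3.12 ± 0.24, adjusted p = 0.000178) and 3.51-fold at 10 d (log2 1.81 ± 0.24, adjusted p = 0.0067). F13a1, the A chain of coagulation factor XIII made by tissue macrophages and monocytes, read 5.81 and 6.19 log2 units without overload, 8.50 and 8.35 at 3 d and 7.18 and 7.18 at 10 d, and its rises were 5.36-fold and 2.27-fold, the 10 d call being lost without pool 1 of no overload (adjusted p = 0.0513). Folr2, a folate receptor, read 5.14 and 5.64 log2 units without overload, 7.60 and 7.53 at 3 d and 6.13 and 6.44 at 10 d, and Cd163, the scavenger receptor for haemoglobin bound to haptoglobin, read 4.83 and 4.64 log2 units without overload, 6.27 and 6.37 at 3 d and 5.72 and 5.61 at 10 d. They rose 4.52-fold and 3.00-fold at 3 d, and their 10 d changes of 0.89 ± 0.23 and 0.93 ± 0.23 had adjusted p = 0.0662 and 0.0536.

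Lyve1, a hyaluronan receptor of perivascular macrophages and of lymphatic endothelium, read 6.53 and 6.49 log2 units without overload, 7.91 and 7.90 at 3 d and 6.27 and 6.22 at 10 d. It rose 2.63-fold at 3 d (log2 1.40 ± 0.13, adjusted p = 0.000367), and at 10 d both pools lay below both pools without overload with a difference of -0.26 ± 0.13 (adjusted p = 0.311). Of 4 measured lymphatic markers, Pdpn, which fibroblasts also carry, rose by 1.84 at 3 d and 1.11 at 10 d, while Prox1, Flt4 and Reln were not called. The summed log2 level of these 4 genes was 19.6 to 19.7 in 3 d overload pools, 18.7 to 19.7 in 10 d overload pools and 17.6 to 17.7 without overload, and their part in the Lyve1 values was not tested.

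**Figure D2:**
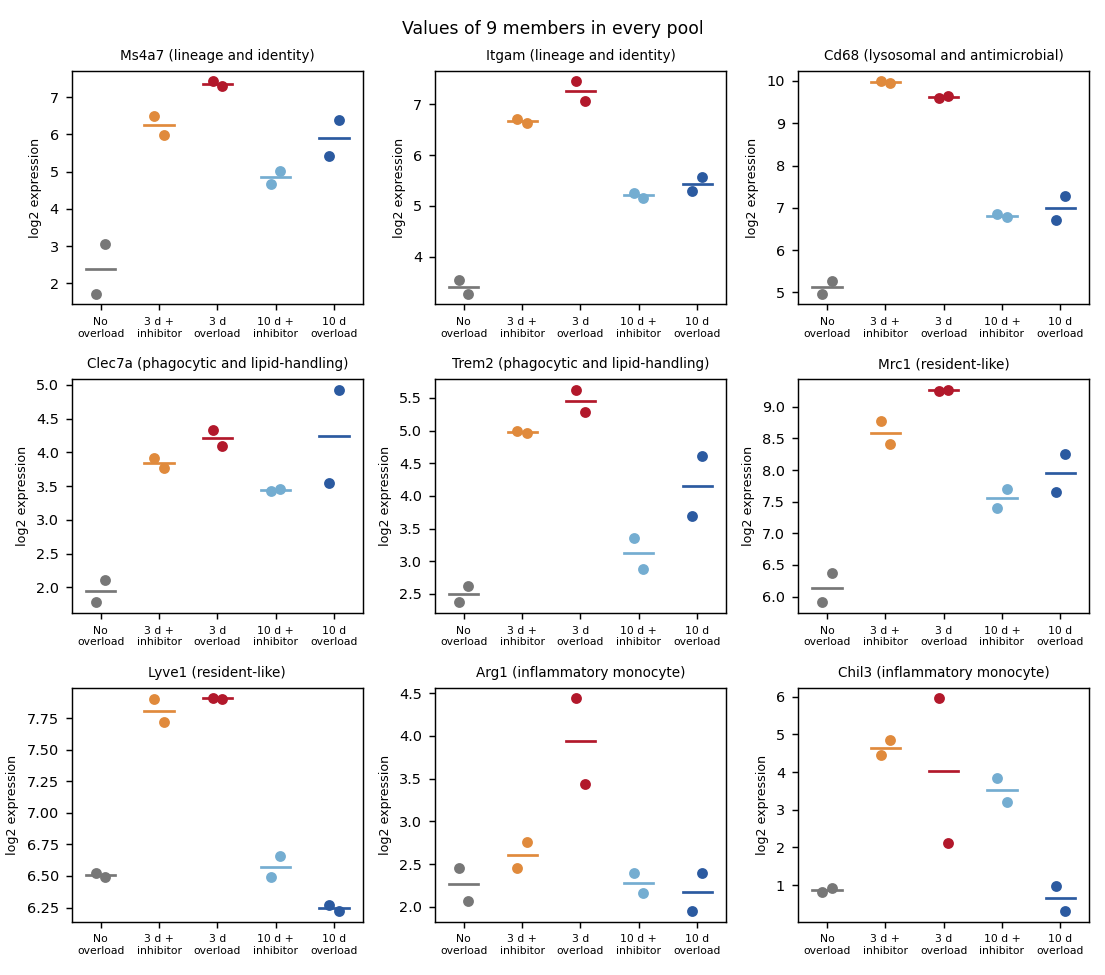
Log2 expression of 9 members in every pool (points) with the group mean (line), by group. Lyve1 and Arg1 are back at or below the level without overload at 10 d, Clec7a is not lower at 10 d than at 3 d by its means, and Chil3 shows 1 high and 1 lower 3 d overload pool.

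**Figure D3:**
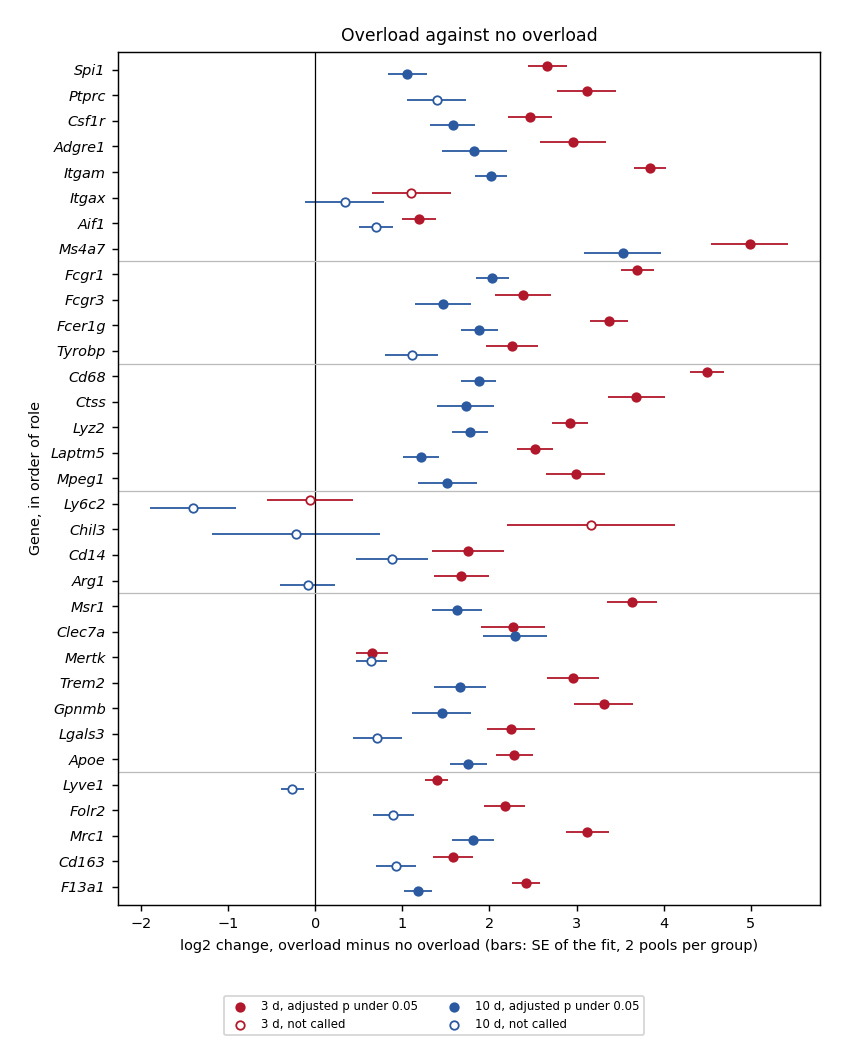
Log2 change of each member with overload against no overload at 3 d and 10 d, with the standard error of the fit as bars and filled points for adjusted p under 0.05. At 3 d 30 points are filled and at 10 d 20, and none of the filled points lies below 0.

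From 3 d to 10 d of overload, 19 of the 33 members fell and none rose, against 3.38% of all genes called lower and 2.7% called higher. The median log2 change of the members was -1.31, against 0.01 over all genes. All 5 lysosomal genes fell, as did 4 of 5 resident-like, 4 of 7 phagocytic, 3 of 8 lineage, 2 of 4 Fc receptor and 1 of 4 inflammatory monocyte genes. Cd68 fell 6.15-fold (log2 -2.62 ± 0.20, adjusted p = 0.00212), Lyve1 3.16-fold (log2 -1.66 ± 0.13, adjusted p = 0.0022), Itgam 3.55-fold and Fcgr1 3.16-fold. Those 4 were the members that passed in all 10 fits that omitted 1 pool. Msr1 fell 4.04-fold, Ctss 3.89-fold and Gpnmb 3.63-fold. Arg1 was called lower too, at -1.76 ± 0.32 log2 units, with a 10 d reading below the array medians. Clec7a (0.03 ± 0.37, 95% interval -0.81 to 0.87), Mertk (-0.01 ± 0.18, interval -0.42 to 0.41) and Apoe (-0.53 ± 0.21, interval -1.01 to -0.04) were not called. Without 3 d overload pool 1 the count fell to 4, and without 10 d overload pool 1 it was 10, with only the 4 arrays compared in the fit it was 5, and the call of Trem2 held in 1 of the 10 fits (log2 -1.76 to -0.83). Of the 10 neutrophil markers, Csf3r (log2 -1.34 ± 0.13, adjusted p = 0.0025) and Lcn2 (log2 -2.62 ± 0.31, adjusted p = 0.00492) were lower in the same comparison. The summed log2 level of all 10 was 19.3 to 20.5 at 10 d, against 26.2 to 46.8 at 3 d, and their part in the values of Itgam and Lyz2, which neutrophils share, was not tested.

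The inhibitor groups gave a separate pair for the same interval. At 10 d with the inhibitor, set against 3 d with it, 15 members were called lower and none higher, against 2.66% and 1.98% of all genes. All 33 estimates were below 0, with a median of -1.02, and the pools of the groups did not overlap for any member, against 26.8% of all genes apart in that direction and 22.9% in the other. Cd68 read 6.84 and 6.79 log2 units at 10 d and 9.99 and 9.96 at 3 d with the inhibitor, a fall of 8.95-fold (log2 -3.16 ± 0.20, adjusted p = 0.00135). Gpnmb fell 4.64-fold, Trem2 3.62-fold, Fcgr1 3.28-fold and Lyve1 2.36-fold. Fcgr1, Cd68 and Lyve1 passed in all 10 fits that omitted 1 pool. The count was 3 without pool 1 and 6 without pool 2 of 3 d overload with inhibitor, and 4 and 3 without pools 1 and 2 of 10 d overload with inhibitor.

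The second question was whether the PDGF inhibitor changed these genes during overload. At 3 d no member passed (limma, smallest adjusted p = 0.293), and 0% of all genes did in either direction. The estimates ran mostly 1 way: 30 of 33 were below 0, against 45.6% of all genes, and the median was -0.50, against 0.03. At an unadjusted p under 0.05, 14 members were lower and none higher, against 4.48% of all genes lower. In 24 members both inhibitor pools lay below both pools of overload alone, against 17.7% of all genes. The members were read from the same pools, so the counts are not independent. For 29 of the members, 3 d overload pool 1 was the higher of its pair. Fibroblast markers had estimates in the same direction for 5 of 6 genes, among them Col1a1, a collagen chain (-0.86 ± 0.24, adjusted p = 0.355), and none was called. Their summed log2 level was 48.1 to 48.3 with the inhibitor, against 49.7 to 50.4 with overload alone.

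Among the lineage genes, Ms4a7 read 6.50 and 6.00 log2 units with the inhibitor, against 7.43 and 7.30 with overload alone at 3 d, an estimate of -1.12 ± 0.44 (adjusted p = 0.509). Spi1 read 4.62 and 4.67 log2 units with the inhibitor, against 5.59 and 5.43 with overload alone (log2 -0.86 ± 0.22, adjusted p = 0.31), and Csf1r 7.18 and 6.93 log2 units with the inhibitor, against 7.89 and 7.70 with overload alone (log2 -0.74 ± 0.26, adjusted p = 0.45). The inhibitor pools were the lower ones in each of these genes and did not overlap the others. Mrc1 read 8.77 and 8.41 log2 units with the inhibitor, against 9.25 and 9.27 with overload alone (log2 -0.67 ± 0.24, adjusted p = 0.469). Arg1 had the lowest estimate of the members, with 2.45 and 2.76 log2 units with the inhibitor, against 4.44 and 3.44 with overload alone (log2 -1.33 ± 0.32, adjusted p = 0.293).

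The 3 members with estimates above 0 at 3 d were Cd68, Chil3 and Ly6c2. Cd68 read 9.99 and 9.96 log2 units with the inhibitor, against 9.60 and 9.64 with overload alone, so its inhibitor pools lay above the others while the other 4 lysosomal genes lay below (log2 0.36 ± 0.20, adjusted p = 0.639). Chil3 read 4.44 and 4.86 log2 units with the inhibitor, against 5.95 and 2.12 with overload alone, and both inhibitor pools lay between the pools of overload alone. The neutrophil markers summed to 39.6 to 41.3 log2 units with the inhibitor, against 26.2 to 46.8 with overload alone. The granulocyte precursor markers did not follow Chil3 at 3 d with the inhibitor. They summed to 11.2 to 11.3 log2 units with the inhibitor, against 9.19 to 33.7 with overload alone and 7.97 to 11.7 without overload. Ly6c2 read 5.48 and 4.84 log2 units with the inhibitor, against 5.18 and 4.44 with overload alone, with overlapping pools. Gpnmb (-0.09 ± 0.34), Mertk (-0.10 ± 0.18) and Lyve1 (-0.10 ± 0.13) had the smallest differences, with 95% intervals of -0.86 to 0.68, -0.51 to 0.32 and -0.40 to 0.21.

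At 10 d no member passed either (limma, smallest adjusted p = 0.255), against 0.0225% of all genes called higher and 0.0812% called lower. Below 0 were 28 of 33 estimates, against 48.4% of all genes, with a median of -0.25, against 0.01. At an unadjusted p under 0.05, 8 members were lower, against 6.25% of all genes, and 2 were higher. In either direction 2352 of all 22180 genes had such a p. In 13 members both inhibitor pools lay below both pools of overload alone, against 19.5% of all genes, and in 2 they lay above, against 21.6%. Trem2 read 3.36 and 2.88 log2 units with the inhibitor, against 3.69 and 4.62 with overload alone (log2 -1.03 ± 0.30, adjusted p = 0.255). Ms4a7 read 4.67 and 5.01 log2 units with the inhibitor, against 5.43 and 6.39 with overload alone (log2 -1.06 ± 0.44, adjusted p = 0.435), and Csf1r 6.08 and 6.14 log2 units with the inhibitor, against 6.64 and 7.17 with overload alone (log2 -0.80 ± 0.26, adjusted p = 0.306). In these 3 genes the inhibitor pools were the lower ones, while Spi1 (-0.03 ± 0.22) and Ptprc (0.01 ± 0.34) had estimates near 0. The 10 d overload pools were far apart: pool 2 was the higher for 30 of 33 members, with a median gap of 0.66 log2 units, against 0.20 over all genes.

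Fibroblast markers had estimates in the same direction at 10 d. Both inhibitor pools lay below both pools of overload alone in all 6 genes, as they did for 19.5% of all genes. Col1a1 read 9.60 and 9.65 log2 units with the inhibitor, against 10.39 and 11.25 with overload alone (log2 -1.20 ± 0.24, adjusted p = 0.143), and Lum, a collagen-binding proteoglycan, 7.26 and 7.43 log2 units with the inhibitor, against 8.01 and 8.73 with overload alone (log2 -1.02 ± 0.24, adjusted p = 0.194). Dpt (-0.81 ± 0.21), Pdgfra, a PDGF receptor (-0.57 ± 0.16), Dcn (-0.39 ± 0.15) and Pi16 (-0.35 ± 0.17) had smaller estimates. None of the 6 was called, and 5 were lower at an unadjusted p under 0.05, against 6.25% of all genes. Their summed log2 level was 50.1 to 50.5 with the inhibitor, against 53.0 to 56.3 with overload alone, and their lowest single reading in these pools was 6.48. Ctsk, a cathepsin that osteoclasts and fibroblasts make, had an estimate of -1.42 ± 0.42 (adjusted p = 0.263). The part of fibroblast RNA in the members' values was not tested.

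Clec7a read 3.42 and 3.46 log2 units with the inhibitor, against 3.55 and 4.93 with overload alone (log2 -0.80 ± 0.37, adjusted p = 0.496), and without 10 d overload pool 1 its estimate was -1.48 and was called. Lyve1 read 6.49 and 6.66 log2 units with the inhibitor, against 6.27 and 6.22 with overload alone, with the inhibitor pools higher (log2 0.33 ± 0.13, adjusted p = 0.422). Chil3 read 3.83 and 3.19 log2 units with the inhibitor, against 0.98 and 0.32 with overload alone, readings that lie below the array medians with overload alone (log2 2.87 ± 0.96, adjusted p = 0.32). It was called higher without either 3 d overload pool (adjusted p = 0.0386), omissions that leave the estimate itself as it is. Neutrophil markers moved with it: Csf3r, the receptor for granulocyte growth factor, was higher by 1.23 ± 0.13 (adjusted p = 0.0256) and Lcn2, a granule protein also made by other cells, by 2.72 ± 0.31 (adjusted p = 0.0303). S100a8, a calcium-binding protein of neutrophils and monocytes, read 4.72 and 4.78 log2 units with the inhibitor, against 0.86 and 0.93 with overload alone. The summed log2 level of the 10 neutrophil markers was 42.4 to 45.9 with the inhibitor, against 19.3 to 20.5 with overload alone, and the lowest single reading with overload alone was 0.72. The summed log2 level of the 7 granulocyte precursor markers was also higher, at 15.3 to 17.1 with the inhibitor, against 8.67 to 9.99 with overload alone. None of them was called, and Ctsg had an estimate in the other direction (-0.64 ± 0.59). The part of either list in the Chil3 values was not tested.

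**Figure D4:**
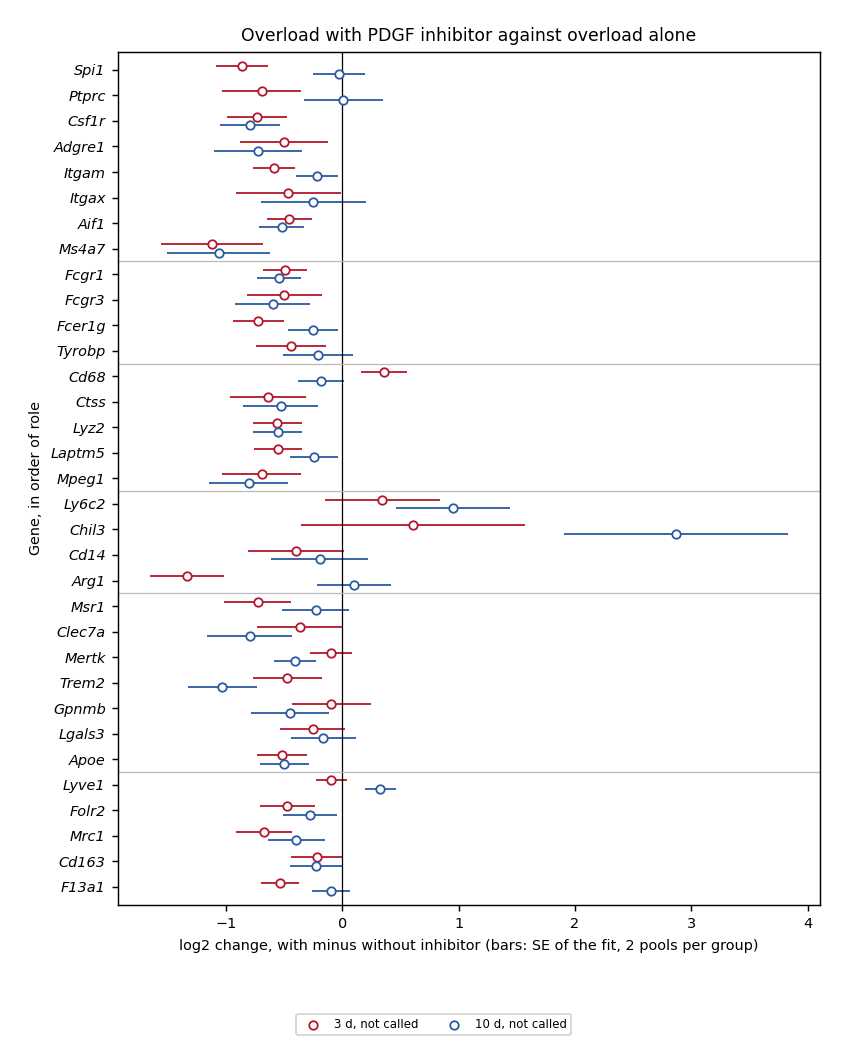
Log2 change of each member with the inhibitor against overload alone at 3 d and 10 d, with the standard error of the fit as bars. All points are open because none had adjusted p under 0.05, most lie below 0, and Chil3 at 10 d lies farthest above it.

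Averaged over both times, the inhibitor estimate was below 0 for 29 members, against 45.6% of all genes, with a median of -0.44, against 0.02. No member passed (limma, smallest adjusted p = 0.131), against 0.225% of all genes called lower and 0.0631% called higher, and 19 were lower and 1 higher at an unadjusted p under 0.05, against 7.01% of all genes lower. All 6 fibroblast markers were below 0 too, with a median of -0.44, led by Col1a1 (log2 -1.03 ± 0.17, adjusted p = 0.0603) and Lum (log2 -0.77 ± 0.17, adjusted p = 0.115), and Ctsk stood at -1.09 ± 0.30. None of these was called, and 5 of the 6 fibroblast markers were lower at an unadjusted p under 0.05, against 7.01% of all genes. Csf1r had the smallest p of the members (log2 -0.77 ± 0.18, adjusted p = 0.131), followed by Fcgr1 (log2 -0.52 ± 0.13, adjusted p = 0.16) and Lyz2 (log2 -0.56 ± 0.15, adjusted p = 0.163). Csf1r and Lyz2 were called when the fit used an intensity trend and robust moderation. Without 10 d overload pool 1, Fcer1g, Ctss, Clec7a and Trem2 were called lower, and without 3 d overload pool 1 Chil3 was called higher. The difference between the inhibitor estimates at 10 d and 3 d was not called for any member (limma, smallest adjusted p = 0.681, 0% of all genes in either direction). An unadjusted p under 0.05 was held by 2 of the 33 members and by 1434 of all 22180 genes, in either direction, so the members are not set apart by it.

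By group means, 25 of the 33 members held 1 order: lowest without overload, then 10 d with inhibitor, 10 d overload alone, 3 d with inhibitor, and highest at 3 d overload alone. No share over all genes is given for this order or for the highest and lowest means below. The members were read from the same pools, so these counts only describe them. The neighbours 10 d with inhibitor and 10 d alone, and 3 d with inhibitor and 3 d alone, were not told apart by the tests above for any member. The highest mean was at 3 d of overload alone for 29 members, at 3 d with inhibitor for Cd68, Ly6c2 and Chil3, and at 10 d overload alone for Clec7a. The lowest mean was without overload for 29 members and at 10 d overload alone for Ly6c2, Chil3, Arg1 and Lyve1.

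A list score, the median over a role's genes of the value minus the gene's mean over the 10 pools, shows the roles by pool. For the phagocytic role it was 0.95 and 0.69 at 3 d with the inhibitor, against 1.27 and 1.02 with overload alone, and -0.38 and -0.56 at 10 d with the inhibitor, against -0.35 and 0.23 alone. The pools without overload scored -1.64 and -1.42. The resident-like role gave 0.87 and 0.46 at 3 d with the inhibitor, against 1.13 and 1.03 alone, and -0.49 and -0.32 at 10 d with the inhibitor, against -0.25 and -0.04 alone. It was -1.33 and -1.01 without overload. Both roles held the same order of group means. The inflammatory monocyte role gave 0.87 and 0.20 with the inhibitor, against 1.58 and 0.07 alone at 3 d, and -0.13 and -0.20 with the inhibitor, against -1.23 and -0.26 alone at 10 d, with -0.52 and -0.81 without overload. Both 3 d inhibitor pools lay between the 3 d pools of overload alone.

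**Figure D5:**
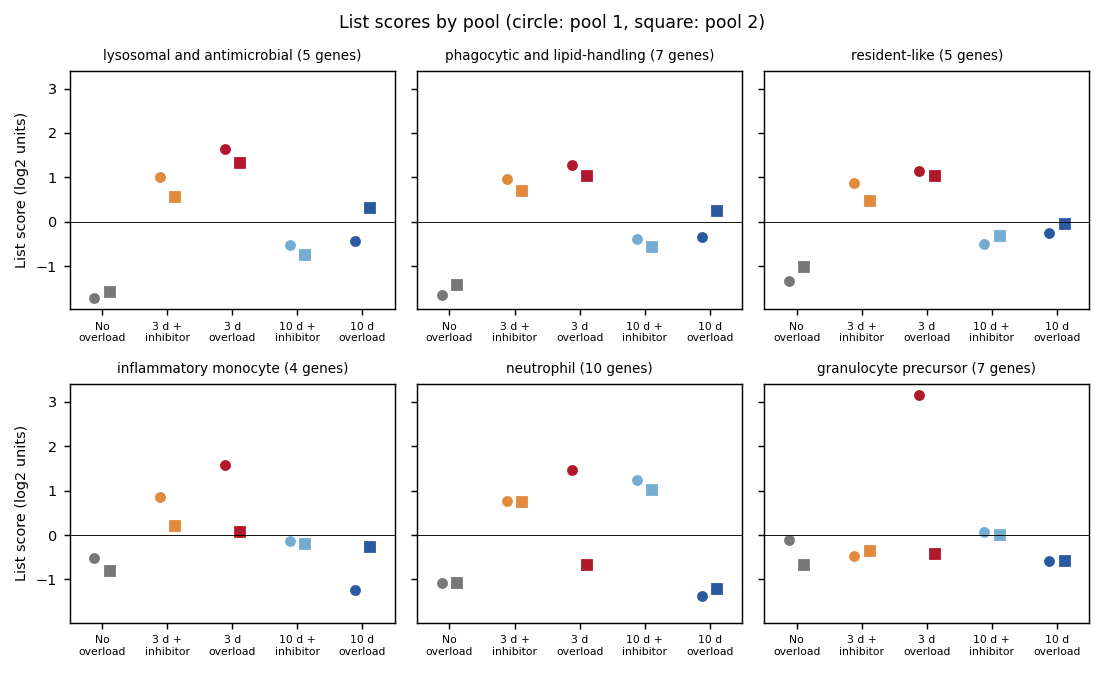
List score in log2 units by group for 4 roles of the members and for 2 marker lists, with a circle for pool 1 and a square for pool 2. The neutrophil and granulocyte precursor scores split the 3 d overload pools, and the neutrophil scores of both 10 d inhibitor pools lie above 1.

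Other genes of the same pathways were taken from 5 lists, with 61 of 66 genes measured. Over all genes, 9.31% were called higher and 8.18% lower at 3 d, and 3.9% and 1.23% at 10 d. From 3 d to 10 d, 2.7% were called higher and 3.38% lower. Over all comparisons, calls of the listed genes were lost 215 times and gained 17 times in the fits that omitted 1 pool. With only the groups compared in the fit, they were lost 39 times and gained 1 time. Of 12 growth factor and recruitment genes, 9 rose at 3 d and none fell, the largest being the monocyte chemokine Ccl2 (4.30 ± 0.62), its receptor Ccr2 (3.69 ± 0.22), Ccl7 (3.33 ± 0.27) and the chemokine receptor Ccr1 (3.04 ± 0.26). At 10 d Ccr2 (1.61 ± 0.22) and Csf2ra (1.14 ± 0.20), a receptor chain for a myeloid growth factor, were still higher. Ccl2 read 1.97 and 2.58 log2 units without overload, 7.04 and 6.11 at 3 d and 1.64 and 3.88 at 10 d. From 3 d to 10 d, 7 of the 12 fell, led by Ccl2 (-3.81 ± 0.62), Ccr1 (-2.70 ± 0.26), Ccl7 (-2.24 ± 0.27) and Ccr2 (-2.08 ± 0.22). The 10 d mean of Ccr1, 2.06, lay below the array medians. Ccr2, the receptor that brings inflammatory monocytes out of blood, read 4.90 and 5.20 log2 units with the inhibitor, against 6.51 and 6.58 with overload alone at 3 d, and 4.04 and 3.72 log2 units with the inhibitor, against 4.15 and 4.78 with overload alone at 10 d. Its averaged inhibitor estimate of -1.04 ± 0.16 was called (adjusted p = 0.0499), the only call among these 61 genes in an inhibitor comparison. That call was lost in 9 of the 10 fits that omitted 1 pool, all but the 1 without 10 d overload pool 1 (log2 -1.20 to -0.88, adjusted p 0.0136 to 0.153).

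Of 9 transcription factors measured, Tfec (2.49 ± 0.35) and Irf8 (1.20 ± 0.35), a factor of monocyte development, rose at 3 d and Nr4a1 (-1.34 ± 0.23) fell. At 10 d limma called none of the 9, and 2 had an unadjusted p under 0.05, as did 4497 of all 22180 genes in either direction. From 3 d to 10 d Tfec fell by 2.13 ± 0.35 log2 units. Its means of 2.14 at 10 d and 1.79 without overload lay below the array medians. Of 16 clearance and lipid genes, 9 rose at 3 d and 2 fell. Those that fell, Lpl (-1.58 ± 0.15) and Cd36 (-0.60 ± 0.15), also handle fatty acids in muscle fibres and capillaries and were named after their values were seen. The complement genes C1qb (3.23 ± 0.31), C1qa (2.74 ± 0.22) and C1qc (2.03 ± 0.22) and the scavenger receptor Stab1 (2.24 ± 0.18) led the rises at 3 d, and all 4 were higher at 10 d too, C1qb by 2.08 ± 0.31 and C1qa by 2.14 ± 0.22. In all, 8 of the 16 were higher at 10 d and Lpl was lower (-0.92 ± 0.15), and between 3 d and 10 d Stab1 and Ctsb fell and Lpl rose.

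Of 14 cytokine and polarisation genes, 9 rose at 3 d, led by Cd80 (2.98 ± 0.29), a ligand for T cell co-stimulation, Ptgs2 (2.80 ± 0.67), Socs3 (2.60 ± 0.30) and Tgfb1 (1.92 ± 0.17). At 10 d Cd80, Igf1 (1.55 ± 0.25), Tgfb1 and Cd86 were higher, and from 3 d to 10 d Socs3, Il1b, Il6 and Tgfb1 fell. The 10 d means of Il1b (2.24) and Il6 (1.64) lay below the array medians. Igf1, a growth factor for muscle, read 5.71 and 5.52 log2 units without overload, 6.86 and 6.87 at 3 d and 6.71 and 7.62 at 10 d. Of 10 other resident-like genes, 6 rose at 3 d, led by Wfdc17 (2.65 ± 0.35), Siglec1 (2.53 ± 0.33), Pf4 (2.34 ± 0.17) and the chemokine Ccl8 (2.28 ± 0.27). At 10 d only Ccl8 passed (2.31 ± 0.27), and Siglec1, Pf4, Vsig4 and Gas7 fell from 3 d to 10 d. The 10 d mean of Vsig4, 2.03, lay below the array medians. Lists of T and NK cell, B cell and mast cell markers held no call at 3 d or 10 d of overload against none. At an unadjusted p under 0.05, 1 of 4 B cell genes was lower at each time, 1 of 9 T and NK cell genes was higher at 10 d, and none of 6 mast cell genes had such a p. Of all 22180 genes, 6489 had such a p at 3 d and 4497 at 10 d, in either direction.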

How the data were processed

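Whole-muscle RNA was measured on 10 Affymetrix Mouse Gene 2.1 ST arrays, 2 pools of 4 muscles in each of 5 groups. The authors deposited log2 expression values, and the submitters' processing notes name RMA, oligo and limma without versions. The labels' protocols name 2 amplification kits, so which was used is not settled here. Values ran from -0.45 to 12.71. Of 41345 probe sets, 23521 had 1 gene symbol, 1814 several and 16010 none listed, and the brightest probe set of each gene gave 22180 genes. Array signal has no counting depth, and 2 pools per group limit the precision.

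From these values, limma 3.58.1 in R 4.3.3 fitted 1 mean per group over all 10 arrays and 8 comparisons, with Benjamini-Hochberg adjustment over all genes and 5 residual degrees of freedom. The fit was tested on simulated data, and promoter words were counted with Python 3.11.15. Every member is reported. From 5 lists of related genes the text names all called genes if 5 or fewer and otherwise the 4 with the largest change, and 11 lists of other cell types were measured. Members, lists and words were chosen with earlier results of these data known. Alternatives were the mean of a gene's probe sets, a common array median, a filter on dim genes, a fit of only the groups compared, an intensity trend with robust moderation, and omission of each pool.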

Additional observations from a re-analysis of the deposited data

Results flagged for a closer look

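Lyve1 was the 1 member whose pools lay apart in opposite directions by the inhibitor at the 2 times. At 3 d it read 7.90 and 7.72 log2 units with the inhibitor, against 7.91 and 7.90 with overload alone, a difference of -0.10 ± 0.13 (limma adjusted p = 0.871). At 10 d it read 6.49 and 6.66 log2 units with the inhibitor, against 6.27 and 6.22 with overload alone, a difference of 0.33 ± 0.13 (limma adjusted p = 0.422). At 3 d the separation was narrower than the 2 decimals printed, far less than the standard error, so it is close to a tie, while at 10 d both inhibitor pools were above both others. The 10 d effect minus the 3 d effect was 0.42 ± 0.19, and it did not pass (limma adjusted p = 0.774). Over all genes, 17.7% had both inhibitor pools below both others at 3 d and 21.6% had them above at 10 d. The share with both was not counted, so Lyve1 is not shown to stand out.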

How the results depend on the processing

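With 2 pools per group and whole-muscle RNA, the calls at 10 d and between times depend on single pools, and the inhibitor comparisons resolve few genes. No paired analysis was possible because the labels give the pools no shared replicate numbers. No member estimate reversed its direction past the threshold under any alternative run. With only the groups compared in the fit, members called higher at 10 d numbered 1 (20 over all groups) and those lower at 10 d than at 3 d numbered 5 (19 over all groups). With an intensity trend and robust moderation, 2 members were called lower in the mean inhibitor effect. Omitting 1 pool at a time gave 28 to 31 members higher at 3 d, 9 to 23 higher and 0 to 1 lower at 10 d, 4 to 22 lower at 10 d than at 3 d, and 3 to 17 lower with the inhibitor in both groups. For the inhibitor these omissions gave 0 members at 3 d, 0 to 1 higher and 0 to 1 lower at 10 d, 0 to 1 higher and 0 to 4 lower in the mean effect, and 0 to 1 higher in the difference of effects. The single gene higher was Chil3, at 2.69 in the mean effect without 3 d overload pool 1 and 4.17 in the difference without 3 d overload pool 2. Over all genes the 10 d total of 1138 calls was 1888 without dim genes, 31 with only the groups compared and 2115 with the trend. The total of 1348 between 10 d and 3 d was 2316, 202 and 2458 under these settings, and with the inhibitor 1031 was 1799, 349 and 2012. The 23 calls for the inhibitor at 10 d were 48, 3 and 161, and the 64 for the mean effect were 233 without dim genes and 455 with the trend. At 3 d the inhibitor gave 0 calls in the fit as reported, 5 without dim genes and 14 with the trend. Omitting 1 pool at a time, the totals over all genes, on which the percentages of all genes rest, ran from 2146 to 3850 at 3 d, 259 to 1232 at 10 d, 218 to 1096 between 10 d and 3 d, and 123 to 972 with the inhibitor in both groups. For the inhibitor they ran from 0 to 7 at 3 d, 0 to 180 at 10 d, 0 to 341 in the mean effect and 0 to 14 in the difference of effects. A common array median removed 0.19 log2 units at 3 d and 0.17 at 10 d from all overload changes, and the share of calls that were higher was then 32.2% at 3 d (53.2% as deposited), 43.1% at 10 d (76% as deposited), 41.2% for the inhibitor at 10 d (21.7%) and 40.4% for the mean effect (21.9%). The direction of no called member changed with it.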

Other observations

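Markers of other cells in the same pools also moved. Of 6 fibroblast genes, Col1a1, a chain of the main fibrillar collagen, rose by 2.24 ± 0.24 at 3 d and 2.83 ± 0.24 at 10 d, and Lum, a collagen-binding proteoglycan, rose at both times, 3.93-fold at 10 d. At 10 d Pi16 (1.53 ± 0.17), Dpt (1.20 ± 0.21) and the PDGF receptor gene Pdgfra (0.82 ± 0.16) were higher as well. So 5 of the 6 had passed, against 3.9% of all genes called higher. Of 5 osteoclast genes, Ctsk, a collagen-degrading cathepsin that fibroblasts also make, rose by 1.90 ± 0.42 and 3.07 ± 0.42, and Calcr fell by 1.31 on the log2 scale at 3 d. The 3 d mean of Calcr, 1.76, lay below the array medians. From 3 d to 10 d Calcr rose by 1.70 ± 0.34 (limma adjusted p = 0.0246). In that comparison Acp5 (-0.31 ± 0.57), Ocstamp (0.03 ± 0.41), Dcstamp (-0.22 ± 0.24) and Ctsk (1.17 ± 0.42) were not called. The genes of this list did not move together, and which cells gave the Calcr signal was not tested. Ctsk read 3.81 and 4.12 log2 units without overload, 6.39 and 5.33 at 3 d and 6.41 and 7.64 at 10 d, with no overlap between the overloaded pools and the pools without overload.

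Of 5 blood endothelium genes, Tie1 was lower at 3 d (-0.76 ± 0.20), and of 6 muscle fibre genes Pvalb, a calcium buffer of fast fibres, was lower at 3 d (-0.80 ± 0.13). Of 6 dendritic cell genes, Flt3, a growth factor receptor of their precursors, was higher at 3 d (0.80 ± 0.23). In the mean inhibitor effect, the neutrophil genes Lcn2 (1.65 ± 0.22, limma adjusted p = 0.0291) and Stfa2l1 (2.07 ± 0.32, limma adjusted p = 0.0499) were higher, and no other gene of the 11 lists was called in that comparison.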
